A study of Mus musculus with 50 samples.

Results

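In *Ezh2* Y726D mouse embryonic stem cells (ESCs), 954 peaks of trimethylated histone H3 lysine 27 (H3K27me3) lay off the wild-type sites of SUZ12 and recurred in *Ezh2* KO ESCs. They were chosen by these peak calls alone, as peaks of the *Ezh2* Y726D list that shared at least 1 bp with an *Ezh2* KO H3K27me3 peak and none with a peak of SUZ12 in wild-type (WT) cells. These shared regions were 24.7% of the 3862 peaks of the *Ezh2* Y726D list, and joined at 10 kb they formed 752 separate loci. The 1012 *Ezh2* KO peaks that met them were 11.3% of the 8956 peaks of that list.

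All lines derive from the WT ESC line E14. The *Ezh2* KO line lacks *Ezh2* and keeps *Ezh1*, the *Ezh1/2* dKO line (labelled Ezh1KO_Ezh2KO) lacks both, and the *Ezh2* Y726D and *Ezh2* R685C lines carry a point mutation of *Ezh2* made by genome editing in *Ezh1* KO cells. The paper reports that the Y726D mutation abolished the catalytic activity of EZH2. It found H3K27 methylation lost in *Ezh2* Y726D cells as in *Ezh1/2* dKO cells, with nearly no H3K27me3 peaks in either. The *Ezh2* Y726D peaks are thus described here as listed, and whether they carry the mark was not tested. The mutant lines are CRISPR clones, so a difference between genotypes and one between clones cannot be told apart. The ChIP-seq samples labelled EZh2Y726D do not name the *Ezh1* knockout and were taken as the study's *Ezh2* Y726D line. ChIP-seq lists were used for H3K27me3 and SUZ12 in all 5 lines, for H3K27ac in the 4 mutants and for an HA tag in *Ezh1/2* dKO cells with or without HA-tagged EZH1. Lists of H3K27me1, H3K27me2 and accessible chromatin (ATAC-seq) covered the lines other than *Ezh2* R685C. Each list stands for 1 library per line and target, its read depth is unknown, and no difference between lines in peaks was tested. RNA-seq had 2 libraries for each of the same 4 lines.

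Polycomb repressive complex 2 (PRC2) places methyl groups on H3K27 through EZH2 or its paralog EZH1, with SUZ12 and EED as core subunits. In ESCs the trimethylated form gathers with the complex at CpG-rich promoters of silent developmental genes, the monomethylated form lies mainly over transcribed genes, and the dimethylated form covers most of the remaining genome. Acetylation of the same lysine marks active promoters and enhancers, and excludes its methylation on the same histone tail.

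The sequences under 4 shared regions are given first, as examples of regions strong in *Ezh2* Y726D or in *Ezh2* KO. Each window holds the 300 bases of the mm9 plus strand around the summit of the *Ezh2* Y726D peak. The *Mid1* window (chrX:166407771-166408070) lies in an intron under the strongest of the shared regions. The *Usp24* (chr4:106063929-106064228) and *Itgb5* (chr16:33846941-33847240) windows, both intronic, are the strongest with a copy of a 16-base word within 5 kb, described next, among regions whose window touches no annotated exon. The nearest copies of the word lie outside these windows. In the *Grb10* intron window (chr11:11926838-11927137), at a shared region under the strongest *Ezh2* KO peak, capitals mark CpG pairs. CpG pairs in the other windows are left in lower case.
Mid1: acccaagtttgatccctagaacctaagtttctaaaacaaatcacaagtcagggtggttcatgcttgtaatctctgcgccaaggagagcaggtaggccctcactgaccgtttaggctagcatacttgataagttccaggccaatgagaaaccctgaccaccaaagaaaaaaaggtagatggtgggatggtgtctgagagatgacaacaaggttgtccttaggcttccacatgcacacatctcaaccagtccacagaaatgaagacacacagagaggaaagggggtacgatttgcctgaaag
Usp24: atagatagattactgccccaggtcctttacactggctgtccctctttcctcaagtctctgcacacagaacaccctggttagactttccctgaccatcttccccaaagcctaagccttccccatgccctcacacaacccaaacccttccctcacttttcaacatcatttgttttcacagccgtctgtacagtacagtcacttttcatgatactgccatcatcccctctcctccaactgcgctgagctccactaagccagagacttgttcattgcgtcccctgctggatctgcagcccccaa
Itgb5: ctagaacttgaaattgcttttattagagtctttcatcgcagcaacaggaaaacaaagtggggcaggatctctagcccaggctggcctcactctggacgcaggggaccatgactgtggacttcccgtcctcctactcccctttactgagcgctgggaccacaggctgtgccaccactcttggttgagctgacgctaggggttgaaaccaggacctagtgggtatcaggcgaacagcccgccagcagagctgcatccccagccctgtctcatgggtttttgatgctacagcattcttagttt
Grb10: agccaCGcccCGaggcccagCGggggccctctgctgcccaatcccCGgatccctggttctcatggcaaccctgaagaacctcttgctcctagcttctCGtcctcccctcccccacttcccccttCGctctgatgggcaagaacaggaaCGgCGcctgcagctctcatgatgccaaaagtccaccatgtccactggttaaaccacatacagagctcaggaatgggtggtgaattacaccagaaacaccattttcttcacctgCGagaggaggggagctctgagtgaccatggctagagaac

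The 16-base word ATGGGCTGCAGCCAAT was the word whose share of regions most exceeded its share of the *Ezh2* KO only peaks, which are the 4512 *Ezh2* KO peaks off both WT SUZ12 and the *Ezh2* Y726D list. Words were counted within 5 kb of the summits on the odd-numbered chromosomes. The word belongs to the long terminal repeat of intracisternal A particles, a family of mouse endogenous retrovirus, as background knowledge, since no repeat annotation was used here. Its reverse complement is in capitals in the 40-base stretches that follow, from beside the shared regions in *Usp24* (chr4:106065540-106065579), *Itgb5* (chr16:33847539-33847578) and *Golga3* (chr5:110624165-110624204), given on the plus strand of mm9 to show the copies nearest to the summits.
Usp24 copy: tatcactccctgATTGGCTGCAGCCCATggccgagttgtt
Itgb5 copy: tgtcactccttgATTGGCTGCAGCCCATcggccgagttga
Golga3 copy: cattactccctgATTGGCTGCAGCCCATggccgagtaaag

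A copy of the word, on either strand, lay within 5 kb of the summit in 387 of the 954 shared regions (40.6%, Wilson 95% interval 37.5 to 43.7). Intervals here cover counting error only. The share was 31.9% for the 2892 other *Ezh2* Y726D peaks off WT SUZ12, which no *Ezh2* KO peak overlapped. It was 2.42% for the *Ezh2* KO only peaks, 0.444% for WT SUZ12 peaks and 2.23% for 10-kb tiles of the genome. The word was thus near both kinds of *Ezh2* Y726D peak and rare near the *Ezh2* KO only peaks. On the chromosomes not used to find the word (even-numbered, X and Y), 172 of 432 shared regions had it (39.8%, 35.3 to 44.5), against 33.0% and 2.28%.

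The copies flanked the regions and were seldom under them. Among the 387 regions the median distance from summit to word was 460 bp, yet the word lay inside the peak itself in 4 of the 954 regions (0.419%) and in 9 of the other peaks. The authors kept only reads with a unique alignment, so reads from identical copies do not enter the lists, and the part of this filter in the distance was not tested.

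**Figure D1:**
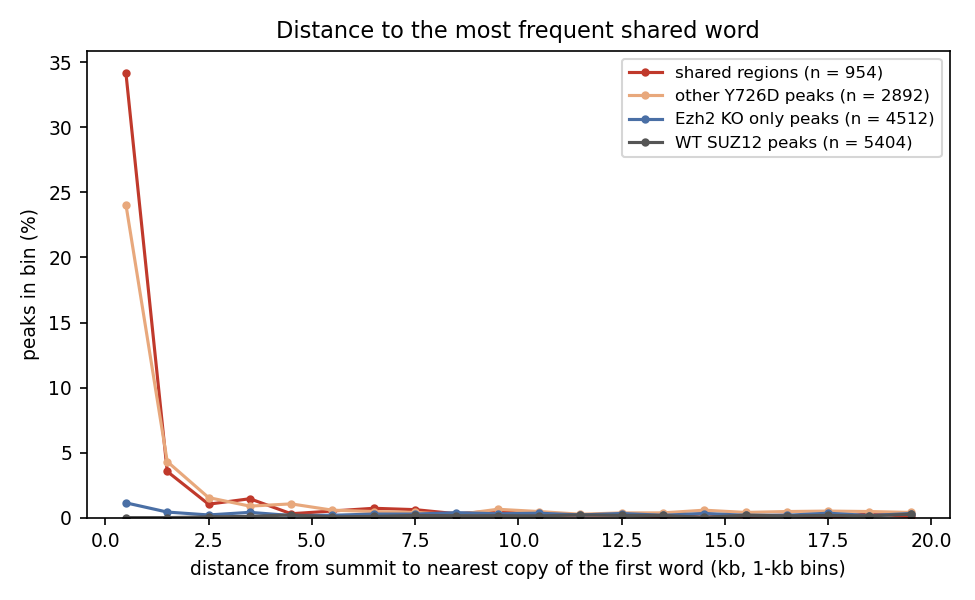
Share of peaks (%) against the distance (kb, 1-kb bins) from summit to the nearest copy of the word, for the 954 shared regions, other Y726D peaks, Ezh2 KO only peaks and WT SUZ12 peaks. In the first bin the shared regions stand at 34.2%, and the Ezh2 KO only and WT SUZ12 peaks stay near 0 throughout.

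Viewed from the repeats, the 7182 copies of the word formed 4605 loci when joined at 8 kb. An H3K27me3 peak lay within 2 kb of 748 loci in *Ezh2* Y726D (16.2%), 330 in *Ezh2* KO (7.17%), 154 in *Ezh2* R685C (3.34%), 15 in WT (0.326%) and 3 in *Ezh1/2* dKO cells. These counts depend on the size of each list. The word lay within 5 kb of 33.9% of the 3862 *Ezh2* Y726D peaks and 5.87% of the 8956 *Ezh2* KO peaks. It lay that near 1.47% of 22245 *Ezh2* R685C peaks, 0.573% of 16754 WT peaks and 3 of the 53 *Ezh1/2* dKO peaks (5.66%). Of the 330 *Ezh2* KO loci, 89.4% also had an *Ezh2* Y726D peak, and of the 748 *Ezh2* Y726D loci, 39.4% had one in *Ezh2* KO. A peak in all 3 of *Ezh2* Y726D, *Ezh2* KO and *Ezh2* R685C stood at 75 loci. WT SUZ12 peaks stood at 4 loci. WT H3K27me1 regions stood at 63.5% of all these loci and at 99.2% of those with an *Ezh2* Y726D peak. These loci share libraries and sequence, so the values are a description.

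The regions with and without the word differed in where they lay and in how often *Ezh2* R685C shared them. Of the 387 with the word, 62 overlapped an *Ezh2* R685C H3K27me3 peak (16.02%, 12.7 to 20.01) and 7.75% lay within 5 kb of the transcription start site (TSS) of a protein-coding gene. A second frequent word, AAATGCACTAAATAAA, was present without the first near 85 regions, of which 34.1% had an *Ezh2* R685C peak and 0 lay within 5 kb of a TSS. The 482 regions with neither word had an *Ezh2* R685C peak in 145 cases (30.1%, 26.2 to 34.3) and a TSS in 17.8%. The second word had a copy within 5 kb of 91 of the 954 shared regions (9.54%), 15.01% of the other *Ezh2* Y726D peaks and 6.51% of genome tiles.

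The sequence under the summits was only moderately rich in G and C. Over the 300 bases around each summit, the median GC content was 49.3% in the shared regions, 47.3% in the other *Ezh2* Y726D peaks, 51.3% in *Ezh2* KO only peaks, 64.7% in WT SUZ12 peaks and 41.7% in genome tiles. The ratio of observed to expected CpG had a median of 0.200 in the shared regions, 0.218 in the other *Ezh2* Y726D peaks and 0.237 in *Ezh2* KO only peaks. In WT SUZ12 peaks, which the choice of regions left out, it was 0.744. CpG islands were thus not typical of the shared regions, nor of the other sets off WT SUZ12.

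Of 6 short motifs searched on both strands, a pair of telomere-type TTAGGG units stood in 12 shared regions (1.26%, 0.721 to 2.19), 0.311% of other *Ezh2* Y726D peaks, 0.0443% of *Ezh2* KO only peaks and 0.0151% of tiles. The CpG-rich GCCGCCGCC was found in 0.210% of the shared regions and 7.42% of WT SUZ12 peaks. The 12-base CA repeat (3.46% of regions, 4.43% of tiles), GA repeat (1.15% and 1.98%), A run (1.36% and 3.53%) and GGAA repeat (0.105% and 0.505%) were no more frequent in the regions than in tiles. The 12 regions with the telomere-type repeat included those near *Lphn2* (an adhesion receptor gene), in *Efna5* (which encodes the ligand ephrin-A5) and in *Lama1* (a laminin chain), which were also on the *Ezh1/2* dKO list. Of the 12, the region beyond *Gm14496* lay 449 bp from the end of chromosome 2. The other 8 were nearest to *Gng4*, *Plk2*, *Olfm1*, *Ajap1*, *5430403G16Rik*, *Chst2* and *Diap2* or inside *Sfta2*.

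The values that chose the regions are given as a description, with no test. Of all *Ezh2* Y726D peaks, 25.1% overlapped an *Ezh2* KO peak, and 16 of these 970 peaks were left out because they also overlapped WT SUZ12. Peak strength is the -log10 p of the peak as listed by the authors, and every listed value was at least 10. Whether an input library entered the peak calls is not known. In *Ezh2* Y726D it ran from 10.01 to 155 over the shared regions, with a median of 17.8, while the median of the other *Ezh2* Y726D peaks was 12.6. The fold over background had medians of 9.52 and 7.75, and the width medians of 655.5 and 342 bp. The shared regions thus tended to be stronger and wider, but the sets overlapped. The lower quartile of -log10 p was 13.7 in the shared regions, and the upper quartile was 15.1 in the other *Ezh2* Y726D peaks. Wider peaks have more room to meet an overlap rule, and the part of the rule in these differences was not tested. At the same regions the *Ezh2* KO peaks had a median -log10 p of 12.9, with a range up to 276, and 221 regions had the higher value in *Ezh2* KO. The values of the lines were loosely related over the 954 regions (Spearman rank correlation 0.32), which share libraries and threshold.

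**Figure D2:**
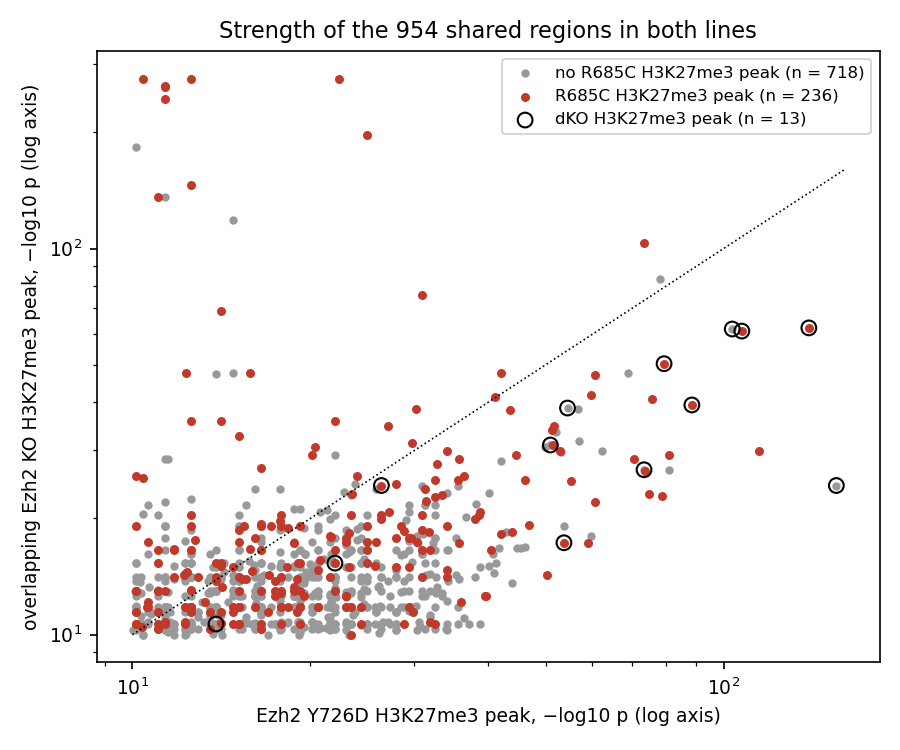
Each point is 1 of the 954 shared regions, with the -log10 p of the Y726D peak on the horizontal and that of the overlapping Ezh2 KO peak on the vertical axis (both logarithmic, with the line of equal values dotted). Red points (236) also overlap an R685C peak, circles (13) a dKO peak, and most regions lie below the dotted line.

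The edges of the rule were soft. The *Ezh2* KO peak covered a median of 63.7% of the region, 83 regions were covered completely, and 15 were met by fewer than 50 bp. Just outside, 136 of the other *Ezh2* Y726D peaks had an *Ezh2* KO peak within 500 bp without touching it, and 426 had one within 5 kb. On the SUZ12 side, 25 of the 954 shared regions had a WT SUZ12 peak within 5 kb and 4 within 500 bp.

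Among the 20 strongest shared regions in *Ezh2* Y726D, most lay in introns or exons. The first, in an intron of *Mid1* (a ubiquitin ligase that binds microtubules), had a -log10 p of 155 in *Ezh2* Y726D, 24.3 in *Ezh2* KO and 11.97 in *Ezh1/2* dKO. The region in *Eftud1*, which encodes a GTPase of ribosome maturation, had 139 in *Ezh2* Y726D, 62.3 in *Ezh2* KO, 58.9 in *Ezh2* R685C and 14.7 in *Ezh1/2* dKO. The region over *Polrmt*, the mitochondrial RNA polymerase gene, had 115, 29.9 and 11.4 in *Ezh2* Y726D, *Ezh2* KO and *Ezh2* R685C and no peak in *Ezh1/2* dKO. These 3 were picked by their *Ezh2* Y726D value, so nothing is read from its being the highest listed. Pairs of regions stood in *Tln1*, the gene of the adhesion protein talin (81.0 and 74.8 in *Ezh2* Y726D), in *Usp24*, a deubiquitinase gene (80.9 and 73.4), and in *Tcte2* (79.3 and 75.8), and pairs stood near *Clcn4-2*, a chloride transporter gene (107 and 70.5), and *Gm4694* (103 and 68.9). Single regions were at *Lphn2* (88.4), *Gm10800* (78.7), *Gm3395* (78.2), *Sulf2* (73.8), *Drg1* (73.4), *Slc38a1* (62.4) and *Itgb5* (60.7). Those at *Gm10800*, *Gm3395* and *Drg1* paired high -log10 p with a low fold of 4.46, 5.25 and 6.14, against 52.1 at *Mid1*.

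A small group, picked by its *Ezh2* KO value, had the reverse order. In 13 regions the *Ezh2* KO peak had a -log10 p of 100 or more, with a median of 197, while the median in *Ezh2* Y726D was 11.3. Of these 13, 9 lay within 5 kb of a TSS, 9 had a WT SUZ12 peak within 5 kb and 10 overlapped an *Ezh2* R685C peak. Of the 13, 4 lay in *Grb10*, an imprinted gene of a growth factor receptor adaptor, with *Ezh2* KO values of 146 to 276 and *Ezh2* Y726D values of 10.4 to 22.3, and 3 of the 4 met the same *Ezh2* KO peak. *Gdf7*, a growth factor gene of the BMP group, had 264 in *Ezh2* KO, 315 in *Ezh2* R685C and 11.3 in *Ezh2* Y726D. *Chst13*, a sulfotransferase gene, had 262 in *Ezh2* KO, 12.7 in *Ezh2* R685C and 11.3 in *Ezh2* Y726D. Over all 954 regions, 25 had a WT SUZ12 peak that near.

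The *Ezh2* R685C H3K27me3 list, which the rule did not use, met the shared regions more often than the other peaks. It overlapped 236 of the 954 (24.7%, 22.1 to 27.6), 6.19% of the other *Ezh2* Y726D peaks (5.37 to 7.13) and 11.2% of the whole *Ezh2* Y726D list. In *Ezh2* KO only peaks the share was 56.3%. With the *Ezh2* Y726D peaks off WT SUZ12 split by their own -log10 p into 5 equal bins from weakest to strongest, 23.7%, 24.2%, 18.0%, 23.5% and 27.3% of the shared regions overlapped an *Ezh2* R685C peak, against 4.76%, 4.75%, 5.56%, 7.33% and 11.8% of the others. The strongest bin spans 18.8 to 155, and *Ezh2* KO strength could not be matched, since the others have no *Ezh2* KO peak. Of the 90 regions with a -log10 p of at least 20 in both lists, 60% overlapped an *Ezh2* R685C peak. Shared regions made up 9.87% of the weakest bin and 60.5% of the strongest. Their greater width gives any list more room to overlap, and its part was not tested.

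**Figure D3:**
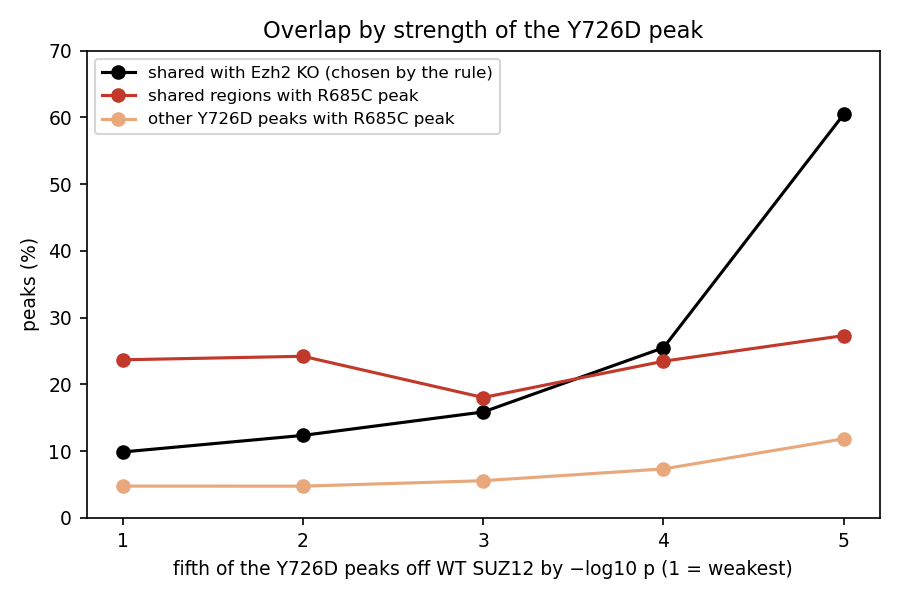
Share of peaks (%) in 5 equal bins of the Y726D peaks off WT SUZ12, ordered by -log10 p from weakest to strongest. The black line, the share that met the rule, rises from 9.87% to 60.5%, while overlap with R685C peaks stays between 18.0% and 27.3% for the shared regions (red) and between 4.75% and 11.8% for the others (orange).

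H3K27me3 lists of WT and *Ezh1/2* dKO cells held few of the regions. WT peaks overlapped 3 of the 954, at *Grb10*, *Gdf7* and *Oas1f*, against 0.337% of the whole *Ezh2* Y726D list and 47.9% of *Ezh2* KO only peaks. The *Ezh1/2* dKO list, made in cells without either catalytic subunit, held 53 peaks in all. It overlapped 13 of the shared regions (1.36%, 0.798 to 2.32), 2 of the 2892 others and 0.621% of the whole list, so peaks were listed at these places also without EZH1 and EZH2. The 13 were at *Mid1*, *Eftud1*, *Clcn4-2*, *Gm4694*, *Lphn2*, *Tcte2*, *Usp24*, *Golga3*, *Whamm*, *Efna5*, *Igfbp7*, *Lars2* and *Lama1*. The largest *Ezh1/2* dKO value among them was 25.4, in *Lars2*, a mitochondrial tRNA synthetase gene, where *Ezh2* Y726D had 22.0 and *Ezh2* KO 15.3.

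Few SUZ12 and HA peaks were listed at the regions. Peaks on WT SUZ12 sites were left out by the choice of regions, and the part of this choice in the low SUZ12 counts was not tested. A SUZ12 peak of any mutant line overlapped 11 of the 954 (1.15%, against 0.699% of the whole *Ezh2* Y726D list). Of these, 2 were in *Ezh2* KO, 3 in *Ezh1/2* dKO, 2 in *Ezh2* Y726D and 5 in *Ezh2* R685C. The *Ezh2* R685C peaks of SUZ12 were at 3 *Grb10* regions, *Flt1* (a VEGF receptor gene) and *Zic4* (a zinc finger factor gene). HA peaks overlapped 3 of the 954 regions, against 18 of the 3862 peaks of the whole list (0.466%). All 3 were listed in cells without the tag, 1 of them also in cells with HA-tagged EZH1. The 3 were *Eftud1*, *Lphn2* and *Clcn4-2*, the first 2 of which were also on the SUZ12 list of *Ezh1/2* dKO cells.

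H3K27ac peaks of any mutant overlapped 41 of the 954 regions, against 252 of the 3862 peaks of the whole *Ezh2* Y726D list (6.53%). Of the 41, 40 were in *Ezh2* R685C. That list overlapped 4.19% of the shared regions (3.09 to 5.66) and 6.81% of the others (5.95 to 7.79). In *Ezh2* Y726D cells, 10 regions had an H3K27ac peak. Of all 954, 902 overlapped no SUZ12, HA or H3K27ac peak.

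WT H3K27me1 regions covered nearly all shared regions. They overlapped 937 of the 954 (98.2%, 97.2 to 98.9), 97.6% of the other *Ezh2* Y726D peaks and, over the whole list, also 97.6%, while they took up 14.7% of the bases analysed. By contrast they overlapped 6.49% of *Ezh2* KO only peaks and 0.296% of WT SUZ12 peaks. The overlap thus held for *Ezh2* Y726D peaks off SUZ12 whether or not *Ezh2* KO shared them. The median -log10 p of the best WT H3K27me1 region was 3.63 at the shared regions, 3.18 at the others and 2.52 at the *Ezh2* KO only peaks that had one. Of the 500 strongest WT H3K27me1 regions, 24.2% lay on a shared region and 52.8% on any *Ezh2* Y726D peak off WT SUZ12. The 17 shared regions without WT H3K27me1 had a median -log10 p of 20.8 in *Ezh2* KO and 12.6 in *Ezh2* Y726D, and 5 had a WT SUZ12 peak within 5 kb.

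The mutant lists of H3K27me1 met fewer of the regions. On the 9 chromosomes that all H3K27me1 lists contain, which hold 471 of the regions, WT H3K27me1 overlapped 97.2%, *Ezh2* KO 25.9%, *Ezh1/2* dKO 33.5% and *Ezh2* Y726D 34.0%. The other *Ezh2* Y726D peaks had 97.6%, 9.07%, 15.1% and 17.0%. The *Ezh2* KO list covered 18.8% of these bases, the WT list 14.5%, the *Ezh1/2* dKO list 10.99% and the *Ezh2* Y726D list 12.6%, so the list with the smallest share of the regions was the one that covered most bases.

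H3K27me2 was compared on 19 chromosomes, with 905 of the shared regions. Lists of this mark overlapped 18.7% of the regions in WT, 7.40% in *Ezh2* KO, 32.7% in *Ezh2* Y726D and 34.9% in *Ezh1/2* dKO. The other *Ezh2* Y726D peaks had 9.59%, 0.829%, 22.7% and 27.3% in the same order. In *Ezh2* KO only peaks the *Ezh2* KO share was 94.7%, so these peaks carried listed H3K27me2 and H3K27me3 in the same cells and the shared regions mostly did not. The H3K27me2 lists covered 14.2%, 16.2%, 24.3% and 24.8% of the bases in the order given. The H3K27me1 and H3K27me2 lists of *Ezh1/2* dKO cells, which have neither EZH1 nor EZH2, thus also met the regions, and no input was analysed here.

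ATAC-seq regions of WT overlapped 583 shared regions (61.1%), 47.2% of the other *Ezh2* Y726D peaks and 50.8% of the whole list. The shares of the shared regions were 49.2% in *Ezh2* KO, 58.0% in *Ezh2* Y726D and 58.6% in *Ezh1/2* dKO, from lists that covered 22.7 to 24.3% of the bases. The broad ATAC-seq regions were used as deposited, and many were weak calls. Where a WT ATAC-seq region was met, the best one had a median -log10 p of 1.40 at the shared regions. This median was 1.38 at the other *Ezh2* Y726D peaks and 1.52 at the *Ezh2* KO only peaks. Requiring cover of 50% of the peak gave 35.3% for WT.

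**Figure D4:**
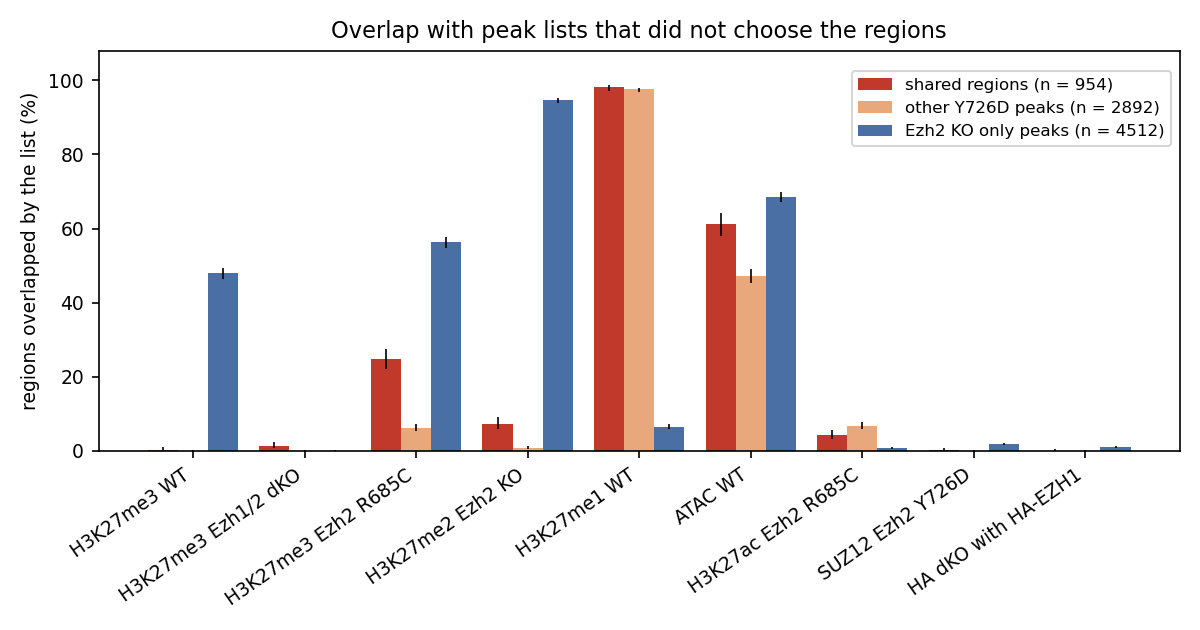
Share of regions (%) overlapped by each of 9 lists that did not choose them, for shared regions, other Y726D peaks and Ezh2 KO only peaks, with Wilson 95% intervals as bars; for H3K27me2 only the chromosomes in that list count. WT H3K27me1 stands at 98.2%, 97.6% and 6.49%, and R685C H3K27me3 at 24.7%, 6.19% and 56.3%.

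The shared regions were mostly far from promoters. The gene body of a protein-coding gene overlapped 35.5% of them (32.6 to 38.6), while gene bodies took up 37.5% of the genome and held 28.9% of the other *Ezh2* Y726D peaks. A TSS lay within 5 kb of 12.2% (10.2 to 14.4), against 10.5% of the others, 41.9% of *Ezh2* KO only peaks and 81.9% of WT SUZ12 peaks. The median distance to the nearest TSS was 32.5 kb. By summit, 46 regions were in exons, 286 in introns and 622 outside protein-coding genes. By chromosome, the density was highest on chromosome 17 (0.661 regions per Mb) and lowest on X (0.066), and 5 regions lay on Y. The other *Ezh2* Y726D peaks were also densest on chromosome 17 (1.64 per Mb) and sparsest on X (0.216).

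A protein-coding gene over the region or a TSS within 5 kb was found for 368 of the 954 regions, and 586 had neither. The 293 genes concerned were 1.32% of the 22225 annotated. They included 10 of 370 *Zfp* zinc finger genes, among them *Zfp462*, *Zfp787* and *Zfp629*, and 2 of 1113 olfactory receptor genes, and 0 members of the *Hox*, *Hist*, *Cyp*, *Ugt*, *Vmn1r* and *Vmn2r* families.

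Expression of these genes was compared in the RNA-seq, where values are normalized counts as deposited by the authors and fold changes are on the scale of log2(normalized count + 1). In the targeted genes, *Ezh2* had values of 598 and 546 in WT, 1.05 and 0.968 in *Ezh2* KO, 422 and 613 in *Ezh2* Y726D and 0.824 and 1.78 in *Ezh1/2* dKO. *Ezh1* had values of 14.01 and 20.4 in *Ezh1/2* dKO and 24.1 and 15.7 in *Ezh2* Y726D against 227 and 377 in WT. The labels thus matched the targeted genes. Of the 293 genes at shared regions, 256 were in the table and 209 passed the filter (mean normalized count of at least 5). The p-values rest on 2 libraries per line. They measure only the spread between libraries of the same line, estimated jointly over all 8 libraries.

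Few of these genes were called as changed. A gene counted as called at an adjusted p under 0.1 (limma, Benjamini-Hochberg over all 13872 genes tested) and a log2 change of 1 or more in size. In *Ezh2* KO, 0 of the 209 were higher and 1 was lower than in WT, against 0.0937% higher and 0.31% lower over all genes. In *Ezh1/2* dKO, 8 were higher (3.83%) and 1 lower (0.478%), against 3.63% and 0.389%. In *Ezh2* Y726D, 3 were higher and 3 lower (1.44% each), against 1.66% and 1.06%. The shares were close to the background in each line. By limma at an unadjusted p under 0.05, 13 of the 209 genes passed in *Ezh2* KO (6.22%, against 8.83% of all genes tested), 36 in *Ezh1/2* dKO (17.2% against 18.6%) and 45 in *Ezh2* Y726D (21.5% against 14.3%). Without either *Ezh1/2* dKO library, 0 genes were called in that line, and without WT replicate 2, 4 were higher there. In *Ezh2* Y726D, 7 were higher without WT replicate 1 and 10 lower without *Ezh2* Y726D replicate 1. The median log2 change of the 209 was 0.06, 0.05 and -0.08 in these lines, where all genes had -0.01, 0.01 and -0.01. Scaling by the upper quartile shifted all genes by 0.126 in *Ezh1/2* dKO.

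The contrast with the genes at *Ezh2* KO only peaks was large. Of the 800 such genes tested, 12.6% were higher in *Ezh1/2* dKO and 7.38% in *Ezh2* Y726D, with median log2 changes of 0.78 and 0.50. Before the filter on low values, the median WT level was 1.22 normalized counts per kb of exon over 1384 genes at *Ezh2* KO only peaks, 22.3 over 256 genes at shared regions and 22.6 over all 16457 genes with an exon length. The WT level of the genes at shared regions was thus close to that of all genes. The genes of the strongest regions, *Mid1*, *Eftud1*, *Polrmt*, *Tln1*, *Usp24* and *Itgb5*, were not called in any line, nor were *Grb10*, *Gnas* and *Nefm*. *Mid1* had 778 and 1093 normalized counts in WT and 798 and 752 in *Ezh2* Y726D, and *Tln1* had 807 and 841 in WT and 722 and 819 in *Ezh2* Y726D, with values that overlapped between the lines in both genes.

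*Plagl1*, an imprinted gene of a zinc finger factor, was called lower. Its 10:12808633-12812503 region spans a TSS of the gene and had a -log10 p of 35.6 in *Ezh2* Y726D, 25.1 in *Ezh2* KO and 15.4 in *Ezh2* R685C. The normalized counts were 227 and 187 in WT, 23.0 and 33.9 in *Ezh2* KO, 6.24 and 11.2 in *Ezh2* Y726D and 88.2 and 69.3 in *Ezh1/2* dKO. All mutant values lay below both WT values. The log2 change was -2.84 in *Ezh2* KO (SE 0.387, limma adjusted p = 0.0223) and -4.46 in *Ezh2* Y726D (adjusted p = 0.00197). The *Ezh2* KO call was lost without WT replicate 1 and without either *Ezh2* KO library. In *Ezh1/2* dKO the log2 change was -1.39 (limma adjusted p = 0.102), which missed the threshold.

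Among the other genes called lower, *Dclk2*, a kinase gene of the doublecortin family, had 388 and 369 in WT, 253 and 351 in *Ezh2* KO, 115 and 88.4 in *Ezh2* Y726D and 188 and 262 in *Ezh1/2* dKO. Its log2 change in *Ezh2* Y726D was -1.90 (limma adjusted p = 0.0115). Its intronic region had 27.04 in *Ezh2* Y726D, 34.7 in *Ezh2* KO and 37.0 in *Ezh2* R685C (-log10 p). *Serpinb6c*, a serpin gene, had 316 and 303 in WT and 136 and 72.7 in *Ezh2* Y726D (log2 change -1.63, limma adjusted p = 0.0324), while *Ezh1/2* dKO values (300.04 and 395) overlapped WT.

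Both genes called higher in *Ezh1/2* dKO and *Ezh2* Y726D had regions in introns. *Lrrfip1*, which encodes a nucleic acid binding protein, had 76.0 and 85.7 in WT, 96.2 and 86.1 in *Ezh2* KO, 294 and 277 in *Ezh2* Y726D and 272 and 304 in *Ezh1/2* dKO. Its log2 change was 1.82 in *Ezh1/2* dKO (SE 0.203, limma adjusted p = 0.00655) and 1.81 in *Ezh2* Y726D (adjusted p = 0.00734). *Arhgap10*, a GTPase activator gene with 2 regions, had 44.0 and 48.1 in WT, 45.0 and 89.0 in *Ezh2* KO, 169 and 181 in *Ezh2* Y726D and 190 and 162 in *Ezh1/2* dKO. Its log2 change was 1.91 in both lines (limma adjusted p = 0.0268 and 0.0324). In both genes all *Ezh1/2* dKO and *Ezh2* Y726D values lay above WT. *Pkd1l2* had 42.7 and 24.1 in WT, 48.1 and 53.2 in *Ezh2* KO, 61.8 and 51.5 in *Ezh1/2* dKO and 117 and 163 in *Ezh2* Y726D, and was called there (log2 change 2.07, limma adjusted p = 0.0324).

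The other 6 genes called higher in *Ezh1/2* dKO were *Efna5*, *Pag1*, *Thbd*, *Cgn*, *Crtac1* and *BC016423*, with limma adjusted p from 0.0355 to 0.0795. *Efna5*, whose region holds the telomere-type repeat, had 17.3 and 17.3 in WT, 7.32 and 22.3 in *Ezh2* KO, 64.2 and 49.2 in *Ezh2* Y726D and 75.8 and 90.6 in *Ezh1/2* dKO (log2 change 2.19 in *Ezh1/2* dKO). *Pag1*, a membrane adaptor gene, had 5.34 and 12.5 in WT and 52.8 and 56.8 in *Ezh1/2* dKO (log2 change 2.59). *Thbd*, the thrombomodulin gene, had 2.67 and 0.963 in WT and 23.9 and 25.7 in *Ezh1/2* dKO (log2 change 3.27). In all 6 genes both *Ezh1/2* dKO values lay above both WT values. The log2 changes of *Cgn*, *Crtac1* and *BC016423* were 1.70, 1.81 and 1.47.

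**Figure D5:**
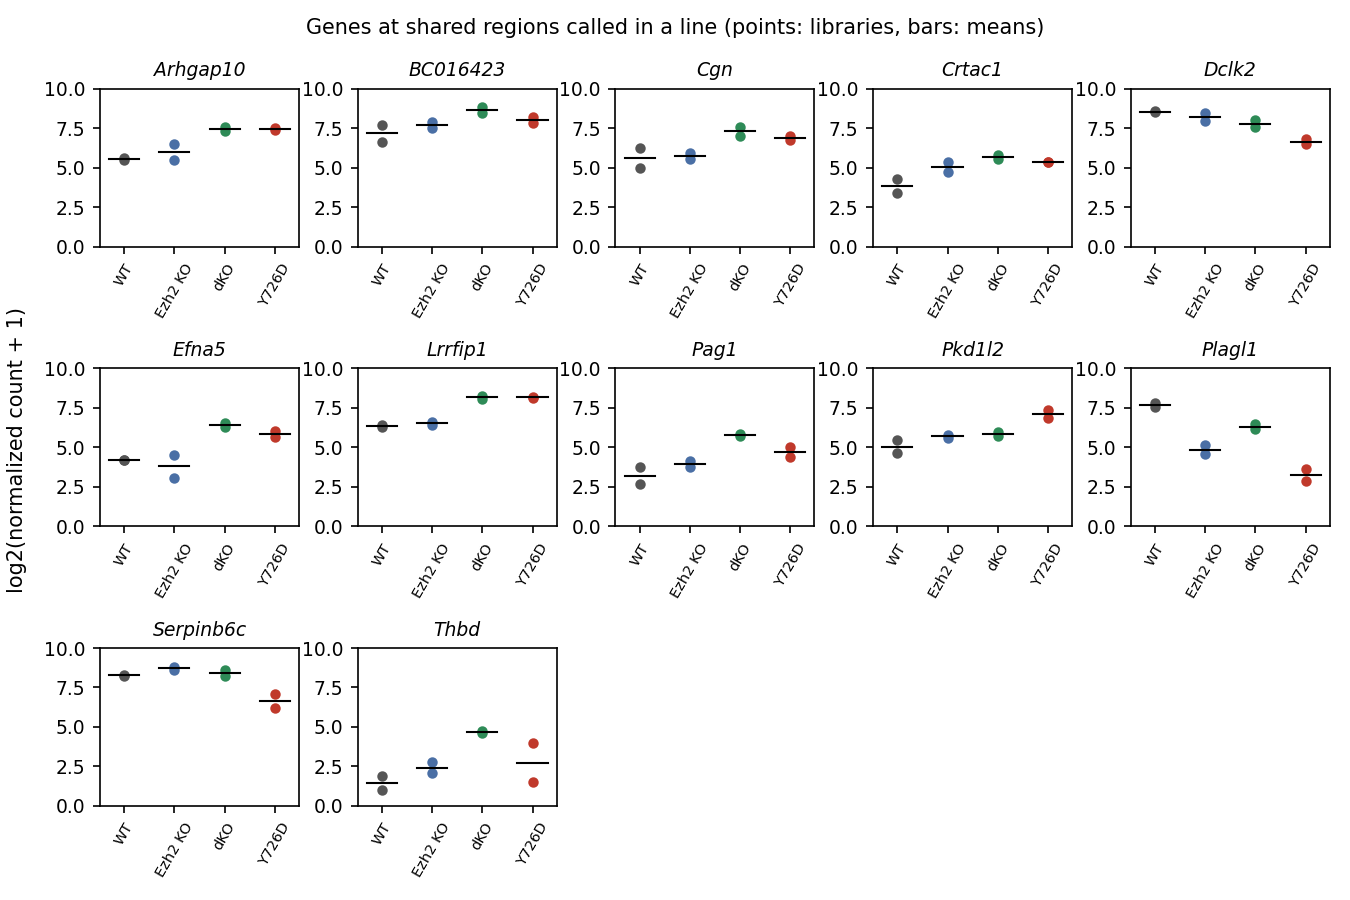
Expression as log2(normalized count + 1) of 12 of the 13 genes at shared regions called in at least 1 line, with 1 point per library, 2 libraries per line, and a bar for the mean. Plagl1 is lower in all mutants and lowest in Y726D, while Lrrfip1 and Arhgap10 are higher in dKO and Y726D.

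Set directly against *Ezh1/2* dKO, *Ezh2* Y726D had 0 of the 209 genes higher and 5 lower, against 0.187% and 1.49% over all genes tested by the same limma rule. Cell type markers are given beside these counts. The sum of 8 ESC markers ran from 9704 to 11693 normalized counts over all libraries. The sum of the 7 markers of differentiated lineages was 92.4 to 104 in WT, 32.4 to 68.7 in *Ezh2* KO, 93.6 to 160 in *Ezh2* Y726D and 180 to 218 in *Ezh1/2* dKO. Fibroblast feeder markers (4 of 5 in the table) summed to 4.81 to 12.01 in WT, 14.5 to 16.7 in *Ezh2* KO, 86.1 to 88.3 in *Ezh2* Y726D and 101 to 115 in *Ezh1/2* dKO, nearly all from *Thy1*. Their part in the called genes was not tested, nor can fewer expressing cells and less RNA per cell be told apart in bulk samples.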

How the data were processed

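For ChIP-seq and ATAC-seq, the authors used Bowtie (mm9, unique alignments only), Picard to drop duplicate reads, and MACS2 for the peaks. The deposited -log10 p and the fold over background (a ratio) of each peak were used at a -log10 p of at least 10 on chromosomes 1 to 19, X and Y. The HA lists hold positions only, and the broad H3K27me1, H3K27me2 and ATAC-seq lists were used as deposited. For RNA-seq, the authors aligned with TopHat, counted with HTSeq-count without strand and normalized with DESeq2. The deposited values are a signal per gene (counts divided by a size factor), and 100% were whole multiples of 1 read within 0.01. The libraries hold 3604123 to 5181553 recovered reads. The genes of the table had a RefSeq annotation.

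The regions, gene lists and tests were chosen with earlier results of these data known. Regions were named by the gene that holds them or the nearest TSS in GENCODE for NCBIM37 (mm9), whose genome gave all sequences. Named are the 20 strongest regions in *Ezh2* Y726D, the 5 strongest in *Ezh2* KO, regions on other H3K27me3, SUZ12 or HA lists (the 10 strongest where more), and called genes. Others were named after their values were seen (*Golga3* for its word, the *Zfp* genes, *Gnas* and *Nefm*, and the regions with a telomere-type repeat). The 16-base words were searched for after the lists were seen. RNA-seq was fitted with limma 3.58.1 (R 4.3.3, trend, all 8 libraries, pseudocount 1). edgeR 4.0.16 and DESeq2 1.42.0 on the recovered reads were alternatives, as were other overlaps, thresholds, windows, filters and left-out libraries. Python 3.11.15 with pandas 2.3.3, NumPy 2.4.6, SciPy 1.17.1, pysam 0.24.0 and matplotlib 3.10.9 did the rest. The RNA-seq fit was tested on simulated data. Replicate numbers were not used as pairs. Of the 13 called genes, 1 is not reported here by name.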

Additional observations from a re-analysis of the deposited data

Results flagged for a closer look

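The level of 5 genes at shared regions differed between the *Ezh2* Y726D and *Ezh1/2* dKO lines by a direct test of the difference (limma, Benjamini-Hochberg over all genes tested). All 5 were lower in *Ezh2* Y726D, and over all 13872 genes 207 were lower and 26 higher. Mutation and clone cannot be told apart. *Plagl1* differed by -3.08 on the log2 scale (SE 0.387, limma adjusted p = 0.0104), with mean normalized counts of 8.71 in *Ezh2* Y726D and 78.7 in *Ezh1/2* dKO. *Serpinb6c* differed by -1.78 (limma adjusted p = 0.0220, means 104 and 348) and *Ube2l6*, a gene of ubiquitin and ISG15 conjugation, by -1.73 (adjusted p = 0.0530, means 65.6 and 220). *Mpp7*, a scaffold gene of cell junctions, differed by -1.20 (limma adjusted p = 0.0554, means 157 and 354) and *Dclk2* by -1.13 (adjusted p = 0.0826, means 102 and 225). In each gene both lines have 2 libraries.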

How the results depend on the processing

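Read depth is unknown for the peak lists, and RNA-seq rests on 2 libraries per line, so only large and even changes could be called. Of 117 alternative values, 85 stayed within the limits set for them and 32 did not, and the cause was not tested. Requiring a -log10 p of at least 20 in both lists left 90 regions, of which 60% met *Ezh2* R685C H3K27me3, 11.1% *Ezh1/2* dKO H3K27me3, 0% WT H3K27me3, 4.44% a mutant SUZ12 peak and 82.2% WT ATAC-seq, 22.2% had a TSS within 5 kb and 62.2% lay in a gene. Requiring cover of 50% of the peak gave 17.6% for *Ezh2* R685C, 0.619% for *Ezh1/2* dKO, 96.6% for WT H3K27me1 and 35.3% for WT ATAC-seq. A TSS window of 2 kb gave 5.66% and one of 10 kb 21.9%. Over whole peaks, the A run stood in 4.82%, the CA repeat in 8.70% and the GA repeat in 3.14%. Chosen after seeing the data were a 1-kb window for the first word (34.2%) and leaving out 14 doubted regions, on the *Ezh1/2* dKO H3K27me3 or untagged HA lists, which took the *Ezh1/2* dKO share to 0%.

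Among genes at shared regions, those higher in *Ezh1/2* dKO (8) numbered 4 at an adjusted p under 0.05 with no fold limit, 2 with a TSS within 5 kb only and 20 within 50 kb. Those lower (1) numbered 2 with pseudocount 5, with edgeR, with DESeq2, at an adjusted p under 0.05 and within 50 kb. In *Ezh2* Y726D, genes higher (3) numbered 0 within 5 kb and 9 within 50 kb, and genes lower (3) numbered 5 with DESeq2, 1 within 5 kb and 9 within 50 kb. Leaving out 1 library each time gave 0 to 1 higher and 0 to 1 lower in *Ezh2* KO (*Plagl1*, lost without WT replicate 1 or either *Ezh2* KO library), 0 to 10 higher and 0 to 2 lower in *Ezh1/2* dKO, and 2 to 7 higher and 3 to 10 lower in *Ezh2* Y726D. Without either *Ezh1/2* dKO library, 0 genes were called there in limma, and without WT replicate 2, 4 were higher. Without WT replicate 1, 7 were higher in *Ezh2* Y726D, and without *Ezh2* Y726D replicate 1, 10 were lower. The lone library of a line is then assumed to vary like the other lines. The same-numbered replicates did not pair (correlations of deviations from -0.41 to 0.29), and a replicate block gave 9 higher and 1 lower in *Ezh1/2* dKO with the other lines at their counts. Over all genes, calls in *Ezh2* KO were 13 higher and 43 lower by limma, 7 and 23 by edgeR, and 45 and 99 by DESeq2.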

Other observations

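On the second word AAATGCACTAAATAAA, 17276 copies were found in the genome, and it lay inside 0 of the 954 shared regions. Of its 16151 loci, 2.56% had an *Ezh2* Y726D H3K27me3 peak within 2 kb, 0.650% an *Ezh2* KO peak and 1.10% an *Ezh2* R685C peak, and 35.4% had a WT H3K27me1 region.

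Polycomb group (PcG) target loci were listed for comparison. Peaks on WT SUZ12 sites were left out by the choice of regions, so nothing is read from the absence of these loci among them. Of the 11 tested, limma called 6 higher in *Ezh1/2* dKO, 6 in *Ezh2* Y726D and 0 in *Ezh2* KO. The median log2 changes were 3.14, 3.69 and 0.33. Of the 11 PRC2 genes, 0 were called higher in any line, and those called lower numbered 2 in *Ezh1/2* dKO, 1 in *Ezh2* KO and 1 in *Ezh2* Y726D, each of them a deleted gene of that line (*Ezh1* or *Ezh2*).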
